A study of Homo sapiens with 30 samples.

Results

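The BCL2 family decides whether the outer membrane of the mitochondrion stays intact, and 10 of its genes were followed here in 2 cell lines of pancreatic ductal adenocarcinoma (PDAC). They were taken by symbol from the deposited expression table, as 10 of 24895 entries, by a rule that used no measured value, though with earlier results of these data known: the anti-apoptotic BCL2, BCL2L1 and MCL1, the effectors BAX and BAK1, and the BH3-only genes BCL2L11, BMF, BAD, BID and BIK. PANC-1 and MiaPaCa2 are established human PDAC lines that grow as adherent cultures. Each was transfected with siDDX60L, siMYEOV, siKCNN4 or siS100A16, small interfering RNAs (siRNAs) against DDX60L, MYEOV, KCNN4 and S100A16, or with a control siRNA (siControl). RNA-seq gave 3 libraries for each of these 10 groups, 30 libraries in all, and all 10 groups went through a transfection. An siRNA lowers its target only in part and acts for a limited time. In RNA from whole cultures, fewer cells of a kind and less RNA per cell cannot be told apart.

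Anti-apoptotic members carry a groove that holds the BH3 helix of the pro-apoptotic members. BAX and BAK1, once released or activated, assemble into pores in the outer mitochondrial membrane, and cytochrome c then leaves the mitochondrion and starts the caspase cascade. BH3-only members act upstream as sensors, either by filling the groove of the anti-apoptotic proteins or by binding the effectors directly. In PDAC the family is known above all for high levels of MCL1 and of Bcl-xL, the long protein of BCL2L1. Much of the regulation is by splicing, phosphorylation and protein turnover, which levels of messenger RNA do not show.

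Several siRNAs were designed per target, and the labels do not number the one sequenced. The sense strands below are those that the study's text names as effective against DDX60L and MYEOV, and that they are the ones in these libraries is inferred from that text. They are shown since the guide strand can also lower other messages that match its first bases, the seed. Capitals mark positions 12 to 18 of the sense strand, the letters that a message must share to pair with guide bases 2 to 8.
siDDX60L: gagcttgttctCGAGTCAt
siMYEOV: ggaggacacgcAAGTTCAg
The siDDX60L sequence lies in the coding part of exon 8 of 38 of DDX60L (GRCh37, chr4:169374318-169374336, minus strand). The siMYEOV sequence lies in the 3′ untranslated region, in the last of 3 exons of MYEOV (GRCh37, chr11:69064185-69064203, plus strand). Each matched 4 transcripts of its own target over its full 19 bases and 0 transcripts of the 10 members. The siMYEOV seed letters occurred in the 3′ untranslated region of 1 of the 10 members, MCL1, against 12.1% of the 19426 genes searched. That stretch is printed here because MCL1 levels are a main result, with the 7 shared letters in capitals (GRCh37, chr1:150549623-150549651, minus strand, exon 3 of 3).
MCL1: tgaaagaagcaAAGTTCAgtttcagcaac
The siDDX60L seed letters occurred in 0 of the 10 members and in 1.61% of the genes searched. A shared run of letters is a description of the sequence. Whether this stretch takes part in any change of MCL1 was not tested.

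Values were FPKM (fragments per kilobase of gene, scaled to the mapped fragments of the library), as deposited by the authors, so levels of different genes can be set side by side per length. Summed over all entries, FPKM ranged from 375091 to 407738 in the PANC-1 libraries and from 395879 to 416201 in the MiaPaCa2 libraries, and replicates of a group correlated across genes with r between 0.9821 and 0.9885. Read totals per library were not in the table, so no counting interval is given. The targeted genes checked the labels. Relative to siControl, DDX60L was at 44.4% after siDDX60L in PANC-1 and 11.1% in MiaPaCa2, MYEOV at 41.7% and 21.3% after siMYEOV, KCNN4 at 47.5% and 36.5% after siKCNN4, and S100A16 at 18.1% and 4.95% after siS100A16. MYEOV was low in MiaPaCa2 from the start, at 0.803 FPKM in siControl and 0.171 FPKM after siMYEOV. In PANC-1 siControl it averaged 23.9 FPKM. Several targets moved after another siRNA too. DDX60L was at 261% of siControl in PANC-1 and 228% in MiaPaCa2 after siKCNN4. In PANC-1, MYEOV was at 204% of siControl after siS100A16 and S100A16 at 270% after siKCNN4. Falls occurred as well. MYEOV in PANC-1 averaged 14.8 FPKM after siDDX60L and 15.1 FPKM after siKCNN4, against 23.9 FPKM in siControl. All 6 epithelial markers averaged over 1 FPKM in PANC-1. In MiaPaCa2 only KRT8, KRT18 and KRT19 did, and EPCAM and CDH1 averaged below 0.1 FPKM. Of 7 leukocyte markers, 4 averaged below 0.1 FPKM in PANC-1 and 3 in MiaPaCa2, PTPRC and CD3E among them in both, while CD68 and CD74 averaged over 1 FPKM in PANC-1 and CD68 and LYZ in MiaPaCa2. Their sum was 83.7 to 87.8 FPKM after siKCNN4 in PANC-1, mostly CD68, and 32.9 to 56.3 FPKM after the other siRNAs, against 44.4 to 47.5 FPKM in siControl. In MiaPaCa2 it was 21.6 to 23.2 FPKM after siKCNN4 and 9.7 to 15.8 FPKM after the others, against 14 to 17.9 FPKM in siControl. Of 8 fibroblast markers, 3 averaged over 1 FPKM in each line, and DCN and LUM averaged below 0.1 FPKM in both. The fibroblast sum was 7.58 to 19.1 FPKM in the siRNA libraries of PANC-1, against 10.8 to 12.6 FPKM in siControl, and 23.3 to 76.8 FPKM in those of MiaPaCa2, against 73.8 to 79.8 FPKM in siControl, with COL1A2 at 15 FPKM after siS100A16, against 66.9 FPKM in siControl. The summed epithelial markers also moved with the siRNAs, at 1010 to 2330 FPKM in the siRNA libraries of PANC-1, against 3140 to 3390 FPKM in siControl, and at 579 to 2050 FPKM in those of MiaPaCa2, against 2020 to 2170 FPKM in siControl. The part of these markers in the member changes was not tested. The labels do not say whether replicates came from separate cultures, so the p values speak for the scatter among libraries, which may be technical.

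The siControl libraries gave the starting state of the family in each line. In PANC-1, the anti-apoptotic messages were MCL1 at 60.5 ± 1.2 FPKM and BCL2L1 at 39.1 ± 1.4 FPKM (SD, n = 3), and BCL2 was at 0.0582 ± 0.022 FPKM. In MiaPaCa2, MCL1 stood at 97.3 ± 5 FPKM, BCL2L1 at 25.4 ± 1.8 FPKM and BCL2 at 1.3 ± 0.051 FPKM. BCL2 itself thus made up 0.0586% of the anti-apoptotic FPKM in PANC-1 and 1.05% in MiaPaCa2. The effectors were lower in PANC-1, with BAX at 30.1 ± 2.7 FPKM and BAK1 at 21.4 ± 6.1 FPKM, against 63 ± 4.5 and 34.4 ± 1.2 FPKM in MiaPaCa2.

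Among BH3-only members, BAD averaged 36.8 ± 2.2 FPKM in PANC-1 and 20.1 ± 0.96 FPKM in MiaPaCa2, and BID averaged 27.2 ± 0.45 and 31.4 ± 1.8 FPKM. BMF averaged 6.9 ± 1.2 FPKM in PANC-1 and 0.876 ± 0.32 FPKM in MiaPaCa2. BIK was close to silent in PANC-1, with 1 of 3 libraries listed at 0, and averaged 1.2 ± 0.38 FPKM in MiaPaCa2. By limma on log2(FPKM + 1), with Benjamini-Hochberg adjustment and a call at an adjusted p below 0.05 and a log2 difference of at least 0.5 either way, 8 of the 10 members differed between the lines, as did 54.8% of all genes tested. The siControl libraries of the lines did not overlap for 9 of the 10 members and for 79.4% of all genes tested. BCL2L1 (log2 difference 0.60, PANC-1 minus MiaPaCa2), BAD (0.84) and BMF (2.08) were higher in PANC-1. MCL1 (-0.68), BAK1 (-0.69), BIK (-1.03), BAX (-1.04) and BCL2 (-1.12) were lower in PANC-1. BID (-0.20) and BCL2L11 (0.29) were not called. Near or below 1 FPKM this scale understates a difference. With a pseudocount of 0.1 the BCL2 difference was -3.15, that of BIK -3.02 and that of BMF 2.89. Line and any separate handling of the lines cannot be told apart.

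**Figure D1:**
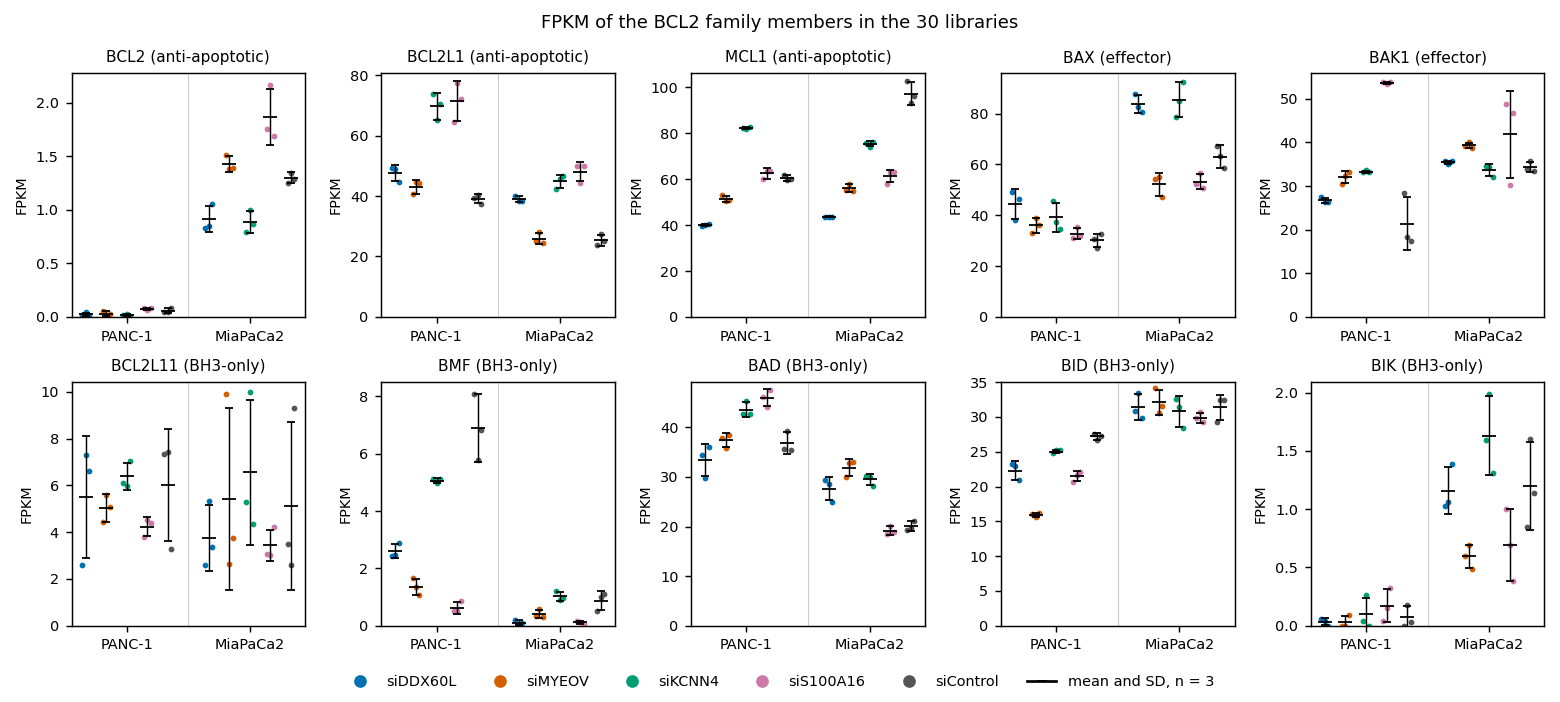
FPKM of the 10 members in each of the 30 libraries, with a panel per gene, PANC-1 on the left and MiaPaCa2 on the right of each panel, the 4 siRNAs before siControl, points for libraries, and the mean with its SD (n = 3). BMF in PANC-1 steps down to 0.632 FPKM after siS100A16, against 6.9 FPKM in siControl, while the BCL2L11 points scatter in several groups, as at 9.9, 2.62 and 3.75 FPKM after siMYEOV in MiaPaCa2.

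After the siRNAs, 19 of the 68 member and comparison pairs that could be tested were called, 11 higher and 8 lower. Of the 80 possible pairs, 12 were below the filter of a mean of 1 FPKM over the line's libraries: BMF in MiaPaCa2, and BCL2 and BIK in PANC-1. Another 21 pairs passed the adjusted p but changed by less than 0.5 on the log2 scale. In PANC-1, siDDX60L changed 3 of the 8 members tested (17.5% of all genes tested were called), siMYEOV 3 of 8 (29.4%), siKCNN4 2 of 8 (26.7%) and siS100A16 3 of 8 (25.4%). In MiaPaCa2, 2 of 9 members were called after each siRNA, where 16.1% of all genes were called after siDDX60L, 26.7% after siMYEOV, 23.2% after siKCNN4 and 22.1% after siS100A16. In PANC-1, the siRNA and siControl libraries did not overlap for 5 of 8 members tested after siDDX60L (56.7% of all genes tested), 6 of 8 after siMYEOV (65.7%), 7 of 8 after siKCNN4 (64.4%) and 5 of 8 after siS100A16 (64.5%). In MiaPaCa2, this held for 5 of 9 after siDDX60L (55.9%), 6 of 9 after siMYEOV (64.3%), 5 of 9 after siKCNN4 (62.4%) and 4 of 9 after siS100A16 (59.2%). Separation of libraries was thus common among all genes. Over all 8 comparisons the members were called in 27.9% of the pairs tested. For all genes, the single comparisons ran from 16.1 to 29.4%, and only siMYEOV in PANC-1 was above 27.9%. A share of all genes pooled over the comparisons was not taken. All 4 comparisons of a line used the same 3 siControl libraries, so an unusual siControl library enters all of them.

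**Figure D2:**
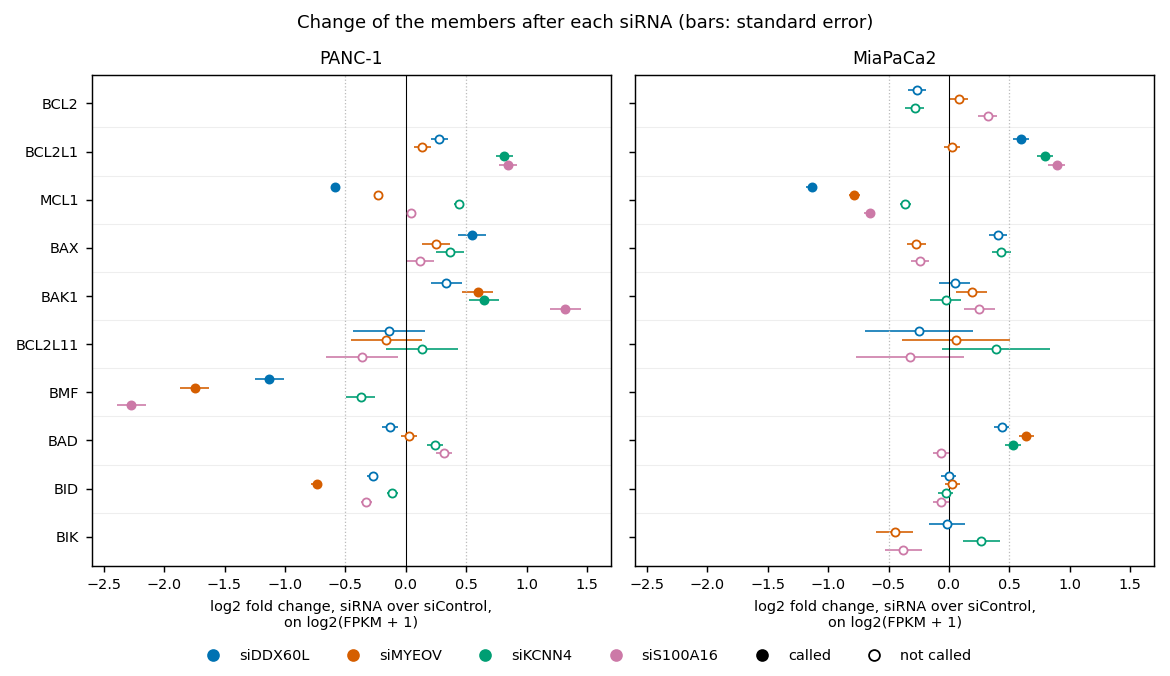
Log2 fold change of each member after each siRNA over siControl on log2(FPKM + 1), in PANC-1 (left) and MiaPaCa2 (right), with bars for the standard error, filled points for called changes, and dotted lines at the minimum of 0.5. BMF reaches -2.27 and BAK1 1.32 after siS100A16 in PANC-1, and MCL1 reaches -1.14 after siDDX60L in MiaPaCa2.

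MCL1 (chromosome 1, 150533371 to 150552214, minus strand, GRCh37) encodes a short-lived anti-apoptotic protein that holds BAK1 and BCL2L11 in check. In PANC-1 it was at 39.7, 40 and 40.6 FPKM after siDDX60L, against 61.9, 59.6 and 60.1 FPKM in siControl. The 3 siDDX60L libraries lay close together and far below siControl, a fall of 0.58 ± 0.04 (SE) on the log2 scale (limma, adjusted p = 6.8e-08). After siKCNN4 the PANC-1 libraries moved the other way, to 82.3, 81.9 and 82.6 FPKM, all above siControl, with a log2 change of 0.44 (adjusted p = 4.1e-07) that stayed under the minimum of 0.5. The libraries after siMYEOV held 52.9, 50.4 and 50.9 FPKM, all below siControl, with a log2 change of -0.23. Those after siS100A16 held 59.9, 63.7 and 63.7 FPKM and overlapped siControl.

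In MiaPaCa2 MCL1 was below siControl after all 4 siRNAs, without overlap. It was at 43.6, 43.6 and 43.7 FPKM after siDDX60L, 55.3, 58.1 and 54.9 FPKM after siMYEOV, 75.9, 74.2 and 76.4 FPKM after siKCNN4, and 58.1, 63 and 63 FPKM after siS100A16, against 103, 93 and 96.2 FPKM in siControl. The deepest fall was after siDDX60L, to 44.9% of siControl, with a log2 change of -1.14 ± 0.04 (limma, adjusted p = 1.1e-09). siMYEOV gave -0.78 ± 0.04 (adjusted p = 1.3e-08) and siS100A16 -0.66 ± 0.04 (adjusted p = 8.9e-08), both called. siKCNN4 gave -0.36 and was not called, but with FPKM rescaled by the median of ratios the value was -0.51 and passed. From highest to lowest, the groups ran siControl, siKCNN4, then siS100A16 and siMYEOV, whose libraries overlapped, then siDDX60L. siDDX60L gave the lowest MCL1 group in each line. The annotated span of MCL1 overlaps ADAMTSL4 on the other strand, in a later annotation than the one the study names for its FPKM. Whether the overlap reaches the stretches counted for MCL1 was not examined. No source used here states how FPKM treated strand, so whether the 2 genes share reads is not known.

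BCL2L1 (chromosome 20, 30252255 to 30311792, minus strand, GRCh37) encodes Bcl-xL, which holds BAX, BAK1 and most BH3-only proteins, and through another splice site the short pro-apoptotic Bcl-xS. Gene-level FPKM does not separate these forms. In PANC-1 it was at 73.7, 65 and 70.4 FPKM after siKCNN4 and 64.4, 77.5 and 72 FPKM after siS100A16, against 39.4, 40.4 and 37.5 FPKM in siControl. Both groups lay entirely above siControl, with log2 changes of 0.82 ± 0.07 (limma, adjusted p = 7.3e-07) and 0.85 ± 0.07 (adjusted p = 5.8e-07). siDDX60L (49.2, 49 and 44.6 FPKM) and siMYEOV (40.5, 44.7 and 44.2 FPKM) gave smaller changes of 0.28 and 0.14, neither called.

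In MiaPaCa2 BCL2L1 stood at 40, 38.4 and 38.4 FPKM after siDDX60L, 42.3, 45.5 and 46.5 FPKM after siKCNN4 and 49.8, 44.3 and 49.8 FPKM after siS100A16, against 23.9, 27.4 and 25 FPKM in siControl. All 9 of these libraries were above every siControl library. The log2 changes were 0.60 ± 0.07 after siDDX60L (limma, adjusted p = 1.2e-05), 0.79 ± 0.07 after siKCNN4 (adjusted p = 6.8e-07) and 0.89 ± 0.07 after siS100A16 (adjusted p = 2.2e-07). siMYEOV left it at 25.1, 28.1 and 24.6 FPKM, within the siControl range apart from the highest library, with a log2 change of 0.03. BCL2L1 was the member called most often, higher in 5 of 8 comparisons and lower in 0, and siS100A16 and siKCNN4 gave the highest levels in both lines, with libraries that overlapped each other.

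The RefSeq promoter of BCL2L1 is shown because the message was raised by several reagents. It covers the 250 bases before the first of its listed starts (GRCh38.p14, chr20:31723964-31724213, minus strand), with matches to TATAAA in capitals, 208 and 125 bases before the start.
BCL2L1: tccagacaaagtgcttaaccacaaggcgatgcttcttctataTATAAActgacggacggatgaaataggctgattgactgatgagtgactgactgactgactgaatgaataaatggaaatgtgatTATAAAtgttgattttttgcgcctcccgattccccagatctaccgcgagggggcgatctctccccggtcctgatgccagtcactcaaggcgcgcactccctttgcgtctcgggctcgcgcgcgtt
Both strands were searched for 6 motifs in all promoters printed here. Of 35116 RefSeq promoters of the same length, 10.7% held TATAAA. The GC box, written GGGCGG, was in 42.6% of them. The AP-1 letters TGANTCA were in 6.57%, and the letters TGACGT of a cyclic AMP element in 7.1%. The FOXO letters GTAAACA were in 2.98% and a kappaB motif in 9.96%. Promoter entries were matched for 8 of the 10 members.

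BCL2 (chromosome 18, 60790579 to 60987361, minus strand, GRCh37), the founding anti-apoptotic member, was tested in MiaPaCa2 only. It was at 0.832, 0.85 and 1.06 FPKM after siDDX60L, 1.51, 1.38 and 1.39 FPKM after siMYEOV, 0.797, 0.996 and 0.868 FPKM after siKCNN4, and 1.76, 2.17 and 1.69 FPKM after siS100A16, against 1.25, 1.35 and 1.29 FPKM in siControl. As deposited, no group overlapped siControl, siDDX60L and siKCNN4 lying below it and siMYEOV and siS100A16 above. The siMYEOV gap was narrow, and with median-of-ratios scaling the means were 1.37 FPKM after siMYEOV and 1.34 FPKM in siControl. The log2 changes of -0.28 to 0.32 were all under 0.5, and 0 of 4 were called by limma. By p alone, 3 of 4 were below 0.05, both unadjusted and adjusted. With a pseudocount of 0.1 the value after siKCNN4 was -0.505 and was called. In PANC-1 BCL2 ranged from 0.0073 to 0.083 FPKM over all libraries, too low for a comparison.

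Because MCL1 and BCL2L1 moved apart, their ratio within a library was taken as well, a measure chosen after their values were seen and given without a test. MCL1 over BCL2L1 averaged 0.844 ± 0.057 after siDDX60L, 1.2 ± 0.097 after siMYEOV, 1.18 ± 0.072 after siKCNN4 and 0.88 ± 0.055 after siS100A16 in PANC-1, against 1.55 ± 0.065 in siControl (SD, n = 3). In MiaPaCa2 it averaged 1.12 ± 0.028, 2.17 ± 0.09, 1.69 ± 0.091 and 1.29 ± 0.13 after the same siRNAs in the same order, against 3.85 ± 0.45 in siControl. Every siRNA group lay below the siControl libraries of its line, all of which are shared by the comparisons of that line. A ratio within a library does not depend on how libraries are scaled. In PANC-1, the BCL2L1 message exceeded that of MCL1 after siDDX60L and siS100A16, and MCL1 was the higher of the pair in siControl.

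**Figure D3:**
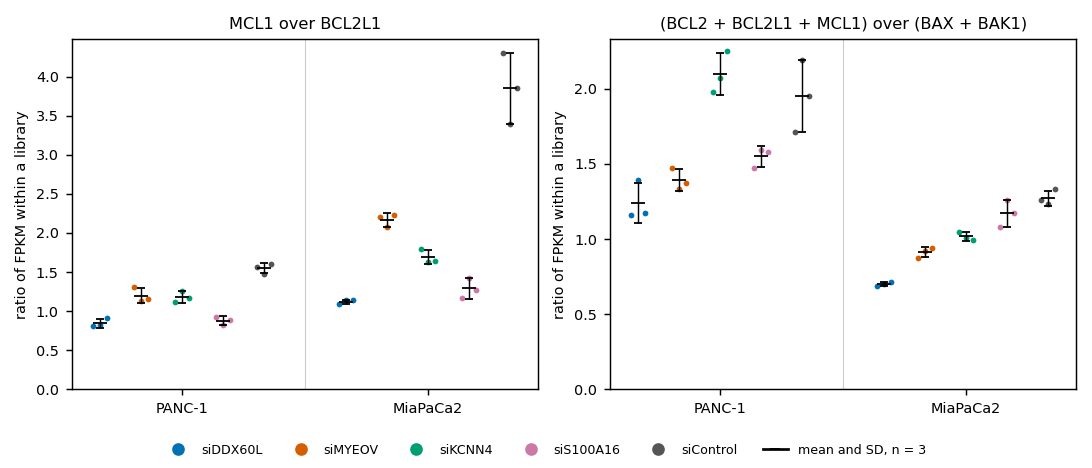
Ratios of FPKM within each library, MCL1 over BCL2L1 on the left and the summed anti-apoptotic members over the summed effectors on the right, for PANC-1 and then MiaPaCa2 in each panel, the siRNAs before siControl, with mean and SD (n = 3). MCL1 over BCL2L1 averages 3.85 in MiaPaCa2 siControl, and the siRNA groups of that line average between 1.12 and 2.17.

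BAX (chromosome 19, 49458072 to 49465055, plus strand, GRCh37) encodes the effector that moves from the cytosol to mitochondria. In PANC-1 it was at 49.3, 38 and 46.5 FPKM after siDDX60L, against 30.6, 27.2 and 32.5 FPKM in siControl. The groups did not overlap and the log2 change of 0.55 ± 0.12 was called (limma, adjusted p = 0.0017), but it was 0.47 with median-of-ratios scaling, 0.48 without siControl replicate 2 and 0.47 without siDDX60L replicate 1, and was then not called. After siMYEOV, siKCNN4 and siS100A16 BAX averaged 36, 39.2 and 32.8 FPKM in PANC-1, with log2 changes of 0.25, 0.36 and 0.12, none called. The siMYEOV (32.9, 38.9 and 36.2 FPKM) and siKCNN4 (45.7, 37.4 and 34.6 FPKM) libraries lay above every siControl library, and those after siS100A16 overlapped siControl. Over both lines, 6 of 8 BAX comparisons had adjusted p below 0.05 by limma and 1 was called.

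In MiaPaCa2 BAX was above siControl without overlap after siDDX60L (87.7, 82.6 and 80.8 FPKM) and siKCNN4 (78.8, 85.1 and 92.6 FPKM), and below it without overlap after siMYEOV (54.4, 55 and 47 FPKM) and siS100A16 (52.3, 56.6 and 50.7 FPKM), against 67.4, 63.2 and 58.4 FPKM in siControl. The log2 changes were 0.41, 0.43, -0.27 and -0.24. All 4 had adjusted p below 0.05 and none reached the minimum of 0.5.

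BAK1 (chromosome 6, 33540324 to 33548070, minus strand, GRCh37) encodes the effector that resides in the mitochondrial outer membrane. After siS100A16 in PANC-1 it was at 53.9, 53.4 and 53.8 FPKM, against 28.5, 18.3 and 17.5 FPKM in siControl, 250% of the siControl mean and the largest rise of a member in any of the 8 comparisons. The log2 change was 1.32 ± 0.13 (limma, adjusted p = 1.9e-06). siMYEOV (30.5, 32.4 and 33.3 FPKM, log2 change 0.59 ± 0.13, adjusted p = 0.0013) and siKCNN4 (33.2, 33.6 and 33.3 FPKM, 0.65 ± 0.13, adjusted p = 0.00075) were also called. siDDX60L, at 27.4, 26.3 and 26.4 FPKM, overlapped siControl and was not called (0.34).

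The siControl library of replicate 1 stood apart from the other 2 for this gene, and all 4 PANC-1 values rest on it. Without it the log2 changes of BAK1 in PANC-1 were 0.55 after siDDX60L, then called, 0.81 after siMYEOV, 0.86 after siKCNN4 and 1.53 after siS100A16. Without siControl replicate 3, siMYEOV gave 0.47 and was not called. In MiaPaCa2 no BAK1 change was called, and the means of 35.5, 39.3, 33.7 and 41.9 FPKM after siDDX60L, siMYEOV, siKCNN4 and siS100A16 stood beside 34.4 FPKM in siControl. There the siS100A16 libraries were uneven, at 48.8, 30.2 and 46.8 FPKM. Processed pseudogenes BAK1P1 and BAK1P2 lie on chromosomes 20 and 11, and no source used here says how reads shared with them were assigned, so BAK1 values are uncertain to that extent.

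The RefSeq promoter of BAK1 is shown as that of the effector that rose most (GRCh38.p14, chr6:33580277-33580526, minus strand, 250 bases), with GC box matches in capitals, 114 and 78 bases before the start.
BAK1: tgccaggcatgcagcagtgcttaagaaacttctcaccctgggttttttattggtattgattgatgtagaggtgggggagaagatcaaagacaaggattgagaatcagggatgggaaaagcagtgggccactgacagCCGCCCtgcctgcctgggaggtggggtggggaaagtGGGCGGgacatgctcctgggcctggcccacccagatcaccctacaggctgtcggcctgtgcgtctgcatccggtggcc

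BMF (chromosome 15, 40380091 to 40401093, minus strand, GRCh37) encodes a BH3-only protein known for sensing loss of attachment, kept at the actin cytoskeleton through the light chain DYNLL2. It fell further than any other member. In PANC-1 it was at 2.43, 2.48 and 2.88 FPKM after siDDX60L, 1.65, 1.34 and 1.06 FPKM after siMYEOV, and 0.518, 0.506 and 0.873 FPKM after siS100A16, against 8.09, 5.78 and 6.83 FPKM in siControl. The 3 groups were separate from siControl and from each other. The log2 changes were -1.13 ± 0.12 (limma, adjusted p = 8e-06), -1.75 ± 0.12 (adjusted p = 7.5e-08) and -2.27 ± 0.12 (adjusted p = 1e-08), leaving 37.6%, 19.6% and 9.16% of the siControl mean. After siKCNN4 BMF held 5.11, 4.97 and 5.11 FPKM, below every siControl library but with a log2 change of -0.37 that was not called.

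In MiaPaCa2 BMF was below the filter, at 0.0475 to 1.21 FPKM over the 15 libraries. It was at 0.197, 0.0475 and 0.0843 FPKM after siDDX60L and 0.17, 0.131 and 0.0693 FPKM after siS100A16, against 0.512, 1 and 1.11 FPKM in siControl. Both groups were below siControl without overlap, at 12.5% and 14.1% of its mean. Fitted without the filter, they gave -0.75 ± 0.12 (limma, adjusted p = 0.00046) and -0.73 ± 0.12 (adjusted p = 0.00042) on the log2(FPKM + 1) scale. siMYEOV (46.2% of the mean) and siKCNN4 (117%) overlapped siControl.

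The RefSeq promoter of BMF is shown as that of the member with the widest range (first listed start, GRCh38.p14, chr15:40108880-40109129, minus strand, 250 bases). Capitals mark a GC box match 45 bases and a kappaB match 20 bases before the start.
BMF: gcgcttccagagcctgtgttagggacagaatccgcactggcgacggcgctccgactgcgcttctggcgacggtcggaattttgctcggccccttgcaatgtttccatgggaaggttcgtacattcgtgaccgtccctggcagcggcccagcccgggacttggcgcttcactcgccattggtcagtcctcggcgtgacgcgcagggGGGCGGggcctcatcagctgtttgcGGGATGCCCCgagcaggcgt

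BAD (chromosome 11, 64037302 to 64052176, minus strand, GRCh37) encodes a BH3-only protein that survival kinases hold inactive by phosphorylation, bound to YWHA proteins. In PANC-1 no change was called. BAD averaged 33.5, 37.4, 43.6 and 46 FPKM after siDDX60L, siMYEOV, siKCNN4 and siS100A16, and 36.8 FPKM in siControl, with the siKCNN4 and siS100A16 libraries above siControl without overlap (log2 changes 0.24 and 0.32). In MiaPaCa2 it was at 30, 32.8 and 33 FPKM after siMYEOV and 30.3, 30 and 28.1 FPKM after siKCNN4, against 19.4, 19.7 and 21.2 FPKM in siControl. These were called at 0.64 ± 0.06 (limma, adjusted p = 2.7e-06) and 0.53 ± 0.06 (adjusted p = 1.8e-05), the siKCNN4 value being 0.38 and not called under median-of-ratios scaling. After siDDX60L BAD held 29.3, 28.5 and 25 FPKM, all above siControl, at 0.44, and after siS100A16 it overlapped siControl. BAD overlaps GPR137 on the other strand.

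BID (chromosome 22, 18216904 to 18257536, minus strand, GRCh37) encodes the protein that CASP8 cleaves to join death receptors to mitochondria. After siMYEOV in PANC-1 it was at 16, 15.6 and 16.2 FPKM, against 27.6, 26.7 and 27.3 FPKM in siControl, a log2 change of -0.74 ± 0.05 (limma, adjusted p = 2.5e-08). It was also below siControl without overlap in PANC-1 after siDDX60L (mean 22.3 FPKM, log2 change -0.27), siKCNN4 (25 FPKM, -0.11) and siS100A16 (21.5 FPKM, -0.33), none of these called. In MiaPaCa2 BID hardly varied, with group means of 29.9 to 32.1 FPKM, siControl at 31.4 FPKM, and overlap between every siRNA group and siControl.

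BCL2L11 (chromosome 2, 111876955 to 111926021, plus strand, GRCh37) encodes BIM, a BH3-only protein that binds all anti-apoptotic members and the effectors. It was called in 0 of 8 comparisons by limma, with 0 of 8 at an unadjusted p below 0.05. Its replicates disagreed more than those of other members. In MiaPaCa2 it was at 9.9, 2.62 and 3.75 FPKM after siMYEOV, against 3.49, 2.59 and 9.3 FPKM in siControl, and its SE was 0.45 there and 0.30 in PANC-1. Its log2 changes ran from -0.36 to 0.39.

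BIK (chromosome 22, 43506756 to 43525718, plus strand, GRCh37) encodes a BH3-only protein of the endoplasmic reticulum. In PANC-1 it did not exceed 0.322 FPKM. In MiaPaCa2 it ranged from 0.383 to 1.99 FPKM and was called in 0 of 4 comparisons by limma. By p alone, 2 of 4 were below 0.05 unadjusted and 1 of 4 adjusted. It was at 0.601, 0.696 and 0.489 FPKM after siMYEOV, against 0.846, 1.6 and 1.14 FPKM in siControl, below it without overlap, with a log2 change of -0.45. That value was called with a pseudocount of 0.1 (-0.87) and without siControl replicate 1 (-0.57). After siS100A16 it was called with a pseudocount of 0.1 (-0.75) and without siS100A16 replicate 1 (-0.51).

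Summed by class, the anti-apoptotic messages were below siControl without overlap in both lines after siDDX60L and siMYEOV. After siKCNN4 and siS100A16 they were above siControl in PANC-1 and not in MiaPaCa2. Differences of these sums between the lines were not tested. In PANC-1, anti-apoptotic FPKM came to 87.7 ± 2.2 after siDDX60L, 94.6 ± 0.97 after siMYEOV, 152 ± 4.6 after siKCNN4 and 134 ± 8.6 after siS100A16, against 99.7 ± 1.8 in siControl. Effector FPKM came to 71.3 ± 6.3, 68.1 ± 4.1, 72.6 ± 5.7 and 86.5 ± 2 after the same siRNAs, against 51.6 ± 6.9 in siControl, above it without overlap each time. Their ratio was 1.24 ± 0.13, 1.39 ± 0.073, 2.1 ± 0.14 and 1.55 ± 0.07, against 1.95 ± 0.24 in siControl, and only siKCNN4 overlapped siControl.

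In MiaPaCa2, the anti-apoptotic sum was 83.5 ± 0.87 after siDDX60L, 83.5 ± 3.6 after siMYEOV, 121 ± 2.4 after siKCNN4 and 111 ± 2.8 after siS100A16, against 124 ± 3.4 FPKM in siControl. The ratio to effectors was 0.701 ± 0.015, 0.913 ± 0.034, 1.02 ± 0.03 and 1.17 ± 0.089, against 1.27 ± 0.052 in siControl, and only siS100A16 overlapped siControl. The ratio of anti-apoptotic to BH3-only FPKM went opposite ways in the lines after siMYEOV, at 1.58 ± 0.041 in PANC-1, above its siControl (1.3 ± 0.041), and at 1.19 ± 0.11 in MiaPaCa2, below its siControl (2.13 ± 0.26). In PANC-1 it was also above siControl after siKCNN4 (1.9 ± 0.091) and siS100A16 (1.85 ± 0.13), which both overlapped siControl in MiaPaCa2. After siDDX60L it overlapped siControl in PANC-1 (1.37 ± 0.079) and was below it in MiaPaCa2 (1.31 ± 0.092). These ratios weigh messages per length, not proteins, and were not tested.

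**Figure D4:**
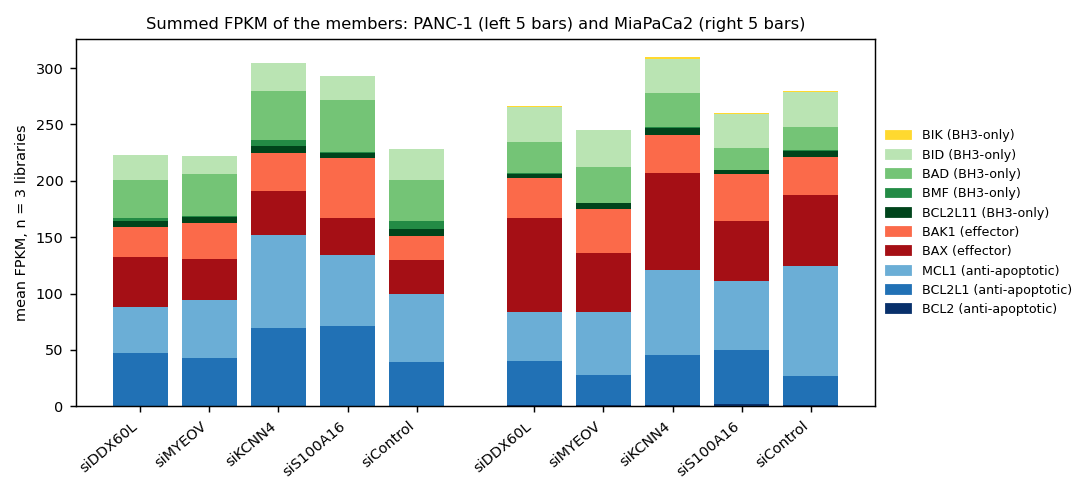
Mean FPKM of the 10 members stacked in each group (n = 3 libraries), PANC-1 in the left 5 bars and MiaPaCa2 in the right 5, siRNAs before siControl. MCL1, BCL2L1, BAX, BAK1, BAD and BID fill nearly all of each bar. As deposited, the sum is highest after siKCNN4 in both lines, at 305 FPKM in PANC-1 and 310 FPKM in MiaPaCa2. In MiaPaCa2 that order rests on the deposited scaling. There, median-of-ratios scaling lowered levels after siKCNN4 (MCL1 from 75.5 to 70.3 FPKM) and raised those of siControl (MCL1 from 97.3 to 101 FPKM).

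Whether an siRNA acted differently in the lines was tested as an interaction, the change in PANC-1 minus the change in MiaPaCa2, for the 7 members tested in both. All 4 MCL1 differences were called, 0.56 ± 0.05 for siDDX60L (limma, adjusted p = 9.5e-08), 0.55 ± 0.05 for siMYEOV (adjusted p = 3.7e-08), 0.80 ± 0.05 for siKCNN4 (adjusted p = 9.1e-11) and 0.70 ± 0.05 for siS100A16 (adjusted p = 1.4e-09). MCL1 was thus lowered less in PANC-1, or not lowered, by each reagent. Because these differences share the siControl libraries of both lines, the high MCL1 of MiaPaCa2 siControl enters all 4.

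The BAK1 change was greater in PANC-1 than in MiaPaCa2 after siKCNN4 (0.68 ± 0.19, adjusted p = 0.0074) and siS100A16 (1.07 ± 0.19, adjusted p = 0.00014). Without PANC-1 siControl replicate 1, the BAK1 differences for siDDX60L (0.50) and siMYEOV (0.62) were called too. BAD differed for siDDX60L (-0.57 ± 0.09) and siMYEOV (-0.62 ± 0.09), where it was above siControl without overlap in MiaPaCa2 and overlapped siControl in PANC-1. The siDDX60L value was -0.49 and not called without PANC-1 siDDX60L replicate 2. After siMYEOV, BID (-0.76 ± 0.08, adjusted p = 6e-08) and BAX (0.52 ± 0.14, adjusted p = 0.007) differed as well. The BAX call was lost without MiaPaCa2 siControl replicate 1 (0.47), MiaPaCa2 siMYEOV replicate 3 (0.45), PANC-1 siControl replicate 2 (0.45) or PANC-1 siMYEOV replicate 2 (0.46).

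In all, 2 of 7 members differed for siDDX60L (9.98% of all genes tested were called), 4 of 7 for siMYEOV (15.4%), 2 of 7 for siKCNN4 (15.2%) and 2 of 7 for siS100A16 (11.8%). BCL2L1 was called in 0 of these 4 by limma, with 1 of 4 at an unadjusted p below 0.05. Its differences were 0.02 ± 0.10 for siKCNN4 and -0.04 ± 0.10 for siS100A16, the reagents that raised it in both lines, 0.11 ± 0.10 for siMYEOV and -0.32 ± 0.10 for siDDX60L. BMF, BCL2 and BIK were not tested for such a difference because each was below the filter in one of the lines.

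**Figure D5:**
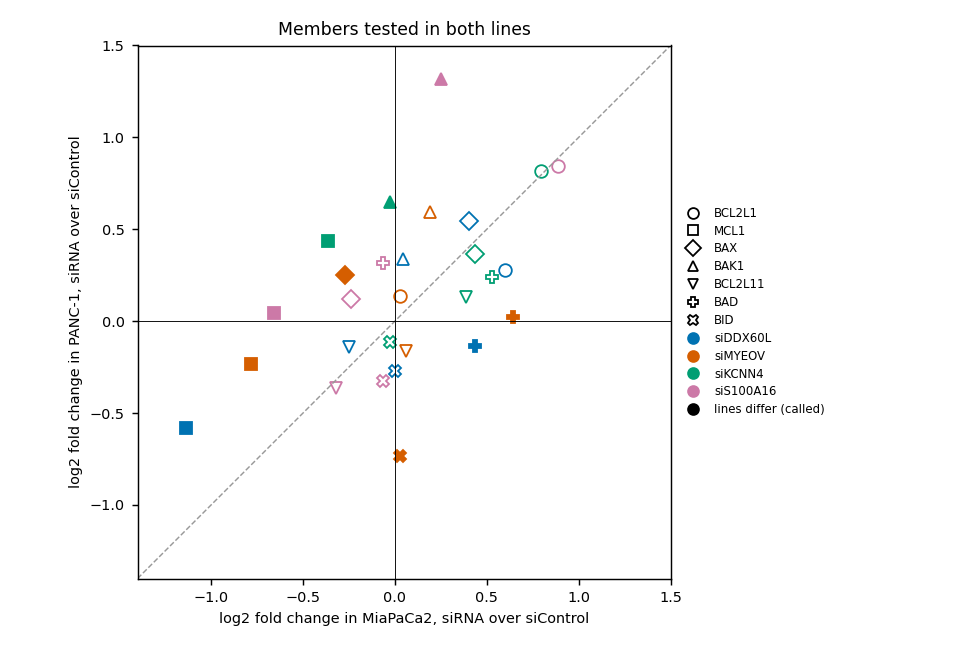
Log2 fold change after each siRNA in PANC-1 (vertical axis) and MiaPaCa2 (horizontal axis) for the 7 members tested in both, with a symbol per gene, a color per siRNA, filled symbols where the lines differed by the called interaction, and the diagonal dashed. All 4 MCL1 squares lie above the diagonal and filled, at differences of 0.55 to 0.80, and the BCL2L1 circles for siKCNN4 and siS100A16 lie near it.

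Other genes of the same pathway were read from 3 lists. Among 13 further family members, 9 were tested in PANC-1 and 7 in MiaPaCa2, and 18 of 64 pairs were called, 10 higher and 8 lower. BCL2L13, an outer membrane protein known as a mitophagy receptor, was higher in 6 of 8 comparisons, by 0.50 to 0.82 on the log2 scale. PMAIP1 (NOXA), the BH3-only partner of MCL1, was lower after siMYEOV in both lines, by -0.99 in PANC-1 and -1.10 in MiaPaCa2. BCL2A1, an anti-apoptotic member tested in PANC-1 only, was lower after siMYEOV (-0.89) and higher after siS100A16 (0.74). BBC3 (PUMA) was lower after siKCNN4 in PANC-1 (-0.80). BCL2L2 was higher in 3 of 8 comparisons (0.86 to 1.22), but it shares sequence with the readthrough gene BCL2L2-PABPN1, and its values are uncertain.

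Downstream of the membrane, all 13 listed genes were tested in both lines, and 29 of 104 pairs were called, 19 higher and 10 lower. BIRC3, an inhibitor of apoptosis that blocks caspase activation at the TNF receptor, was lower in 7 of 8 comparisons, by -0.68 to -2.54, the exception being siS100A16 in PANC-1 (-0.23), with the deepest value after siMYEOV in PANC-1. CYCS, which encodes cytochrome c, was higher in 5 of 8 (0.51 to 1.07) and BIRC5 (survivin), which is also a mitotic gene, in 4 of 8 (0.59 to 1.61). Of 23 regulators, 22 were tested and 39 of 176 pairs were called, 25 higher and 14 lower. DDIT3 (CHOP), a stress factor known to induce BCL2L11, was higher in 5 of 8 (0.64 to 1.7). E2F1 was higher in 5 of 8 (0.61 to 1.40), YWHAG, which binds phosphorylated BAD, in 4 of 8 (0.54 to 0.69), and the kinase gene PIM3 was lower in 3 of 8 (-0.64 to -1.14). Other YWHA genes were mixed. YWHAH was lower in 2 of 8 (-0.65 to -1.14) and higher in 1 (0.75), and YWHAB was lower in 1 (-1.21) and higher in 1 (0.92). YWHAQ (0.54) and YWHAZ (0.59) were each higher in 1, and YWHAE was called in 0. The shares called, pooled over the comparisons, were 28.1% for the further family members, 27.9% downstream and 22.2% among regulators. For all genes, the single comparisons ran from 16.1 to 29.4%.

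The members with the widest range of group means, once each line was centred on its own mean, were BMF (2.27 on the log2 scale) and BAK1 (1.32). Over the 10 group means, the genes most like BMF were CARHSP1 (r = 0.94), FKBP2 (r = 0.94) and IFIT3 (r = 0.935), among 10548 genes. Those most like BAK1 were CABLES1 (r = 0.937), MAP7D1 (r = 0.935) and SUPT6H (r = 0.933). BMF was below the filter in MiaPaCa2, with group means of 0.11 to 1.03 FPKM. How far each line carries the likeness to BMF was not examined. The groups share a centring within each line, and these genes were picked as the highest of many, so the values are descriptions.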

How the data were processed

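A single table deposited by the authors held FPKM with a column for each library. TopHat2 2.0.12 and GRCh37 appear in the processing notes of the submitters. The FPKM program and strand setting were not given in the sources used here, and labels and methods name different RNA and library kits. Groups came from the labels. The 10 members and all gene lists were chosen with earlier results of these data known. Symbols turned into dates were restored for 27 genes.

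Values were analysed as log2(FPKM + 1), with the pseudocount of 1 understating changes of low genes. Tests within a line took genes whose 15 libraries averaged 1 FPKM or more, 12513 in PANC-1 and 11875 in MiaPaCa2, in a linear model with empirical Bayes and a mean-variance trend (limma 3.58.1, R 4.3.3). P values were two-sided and adjusted over all genes tested. Differences between lines were contrasts over all 30 libraries, for 11084 genes. The fit was tested on simulated data. FPKM hold no read depth, so precision rests on the 3 replicates. The rule for named genes took all 10 members, the 4 targets, called genes of 3 lists and the 3 genes most like each of the members with the widest range. Replicate numbers of the titles paired no samples: of 24 same-numbered pairs, 1 had deviations correlated above 0.1 (-0.055 to 0.16). Alternatives were another pseudocount, no filter, median-of-ratios scaling, a replicate block, no trend, the 6 compared libraries alone and each library left out. Protein sequences were not used here, and the siKCNN4 and siS100A16 sequences were not analysed here. Some genes of the lists are not reported here.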

Additional observations from a re-analysis of the deposited data

Results flagged for a closer look

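The effect of an siRNA differed between the lines, by the interaction test, for 10 of the 28 member and siRNA pairs tested. Of all genes tested, 9.98% were called for siDDX60L, 15.4% for siMYEOV, 15.2% for siKCNN4 and 11.8% for siS100A16. The values are the PANC-1 change minus the MiaPaCa2 change on the log2 scale. MCL1 differed for all 4 reagents, by 0.56 for siDDX60L, 0.55 for siMYEOV, 0.8 for siKCNN4 and 0.7 for siS100A16. BAK1 differed by 0.68 for siKCNN4 and 1.07 for siS100A16. BAD differed by -0.57 for siDDX60L and -0.62 for siMYEOV. After siMYEOV, BAX differed by 0.52 and BID by -0.76. For MCL1 after siKCNN4 the lines had opposite signs, with a log2 change of 0.44 in PANC-1 and -0.36 in MiaPaCa2, neither of which was called alone. All of these values for a line rest on its 3 siControl libraries.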

How the results depend on the processing

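Of the 19 member calls against siControl, 3 were lost under some alternative, 6 others were gained, and none of these changed direction. Of the 10 calls between lines, 2 were lost and 2 gained. BAX, BAK1 and BAD calls near the minimum of 0.5 were the ones lost, as given beside them, with values of 0.384 (BAD after siKCNN4 in MiaPaCa2, median of ratios), 0.467 (BAX after siDDX60L in PANC-1, median of ratios) and 0.47 (BAK1 after siMYEOV in PANC-1, without siControl replicate 3). BAD after siDDX60L in MiaPaCa2 was gained at 0.503 without siDDX60L replicate 3. Without the filter on low values, the counts of genes that differed between lines were 2588 for siMYEOV, against 1705 with it, 2614 for siKCNN4, against 1689, and 2018 for siS100A16, against 1312. More genes were tested there. Median-of-ratios scaling moved the median of all genes by -0.137 for siKCNN4 in MiaPaCa2, -0.113 for siS100A16 in PANC-1 and 0.117 for the siKCNN4 difference between lines. It changed the share of calls that were higher to 45.7% (68.9% as deposited) for siKCNN4 and 47.3% (61%) for siMYEOV in MiaPaCa2, to 43.4% (58.1%) for siDDX60L and 46.8% (64.8%) for siS100A16 in PANC-1, and for the line differences to 48.9% (33.9%) for siMYEOV, 53.1% (29.7%) for siKCNN4 and 49.3% (67.9%) for siS100A16. Member levels over 1 FPKM moved by -7.12 to 3.8%. The replicate block changed no member call, and its gene counts were 0.996 to 1.01 times those without it (1903 for siDDX60L in MiaPaCa2, against 1907). Dropping the trend, the filter, or all but the 6 libraries compared changed no call of a tested member. With 3 libraries a group, these data say least about BCL2L11, whose replicates disagreed, and about BIK and BCL2, whose levels were low. BIK did not exceed 1.99 FPKM and BCL2 did not exceed 2.17 FPKM in any library.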
